A study of Mus musculus with 18 samples.

Results

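The 7 genes described here, Bdnf, Ntf3, Gdnf, Nrg4, Sema3a, S100b and Clstn3, encode signals through which fat can act on nerves, glia or neighbouring cells. They were chosen by their symbols, and all 7 were found among the 45151 symbols present in each of the 18 deposited expression files. The libraries came from wild type male C57BL/6J mice aged 16 weeks and kept on regular chow, with 6 libraries each of inguinal fat (iWAT), epididymal fat (eWAT) and interscapular brown fat (BAT). For iWAT and eWAT the RNA came from collagenase-released adipocytes collected as the floating layer. For BAT it came from whole tissue, which the source label states although the cell type label reads adipocytes. In every comparison with BAT, depot and preparation therefore cannot be told apart.

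Brown fat is densely supplied by sympathetic nerves, and white fat more sparsely. Neurotrophins such as BDNF and NT-3 keep neurons alive and guide their branching through Trk receptors, GDNF acts through RET, and SEMA3A repels growing axons through neuropilin and plexin receptors. NRG4 is a secreted ligand of ErbB4 known as a brown fat factor. S100B is a calcium-binding protein made by glia and also by brown adipocytes, and a product of the Clstn3 locus made in adipocytes, calsyntenin 3β, is known to promote its secretion and the innervation of brown fat.

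Levels are given as RPKM, reads scaled to row length and to the total reads of the library, and rested on 22929576 to 32141048 reads per iWAT sample, 26607733 to 34048018 per eWAT sample and 26706786 to 34512470 per BAT sample. A row was a gene with merged exons in iWAT and BAT, and a single transcript in eWAT, where the most-read transcript of each gene was taken. Only Gdnf has the same row in both kinds of file. For this reason the eWAT differences of the members are given from a fit that corrects for row length and also from a fit that does not. For other genes the second value is given where it changed the direction or the call, and in some other cases. Over all genes the median log2 difference was 0.01 for iWAT against BAT, 0.59 for eWAT against BAT (0.15 without the length term) and 0.35 for eWAT against iWAT (-0.04 without it), and changes are to be read against these medians. The share of called genes that were higher in the first depot was 50.3%, 72.6% and 87.5% in these comparisons. It was 65.8% for iWAT against BAT when no normalisation beyond library size was used, and 56.4% and 41.0% for eWAT against BAT and iWAT without the length term.

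Markers of adipocytes and brown adipocytes followed the labels. The summed RPKM of 5 brown markers, Ucp1 among them, was 2042 to 2635 in BAT, 22.2 to 31.6 in iWAT and 4.69 to 7.35 in eWAT. Other cells were present too. In BAT 12 the 5 skeletal muscle markers summed to 1340, against 0.55 to 118.8 in the other BAT samples. The 5 epididymis markers summed to 76.1 in eWAT 14 and 70.9 in eWAT 15, and 6 macrophage markers to 1952 in eWAT 15 against 136 to 463 in the other eWAT samples. Leaving out BAT 12, eWAT 14 and eWAT 15 together, an alternative chosen after seeing the data, changed the call of none of the 6 members tested in any of the 3 comparisons. In bulk RNA, fewer cells of a type and less RNA per cell cannot be told apart.

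At the level of RPKM, which is per length, the order of the genes differed between the depots. In BAT, Clstn3 (33.6 to 45.2) and S100b (20.5 to 40.0) stood highest and overlapped each other, and both lay above Nrg4 (11.5 to 15.3). In iWAT, Nrg4 was highest (12.7 to 19.5), followed without overlap by Clstn3 (5.13 to 6.10) and S100b (1.01 to 3.43). The same order, Nrg4 before Clstn3 before S100b, was seen for the eWAT means, though there Clstn3 (2.51 to 7.18) and S100b (1.21 to 3.93) overlapped. Ntf3 and Bdnf stayed below an RPKM of 1 in all samples. Sema3a and Gdnf were lower still.

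**Figure D1:**
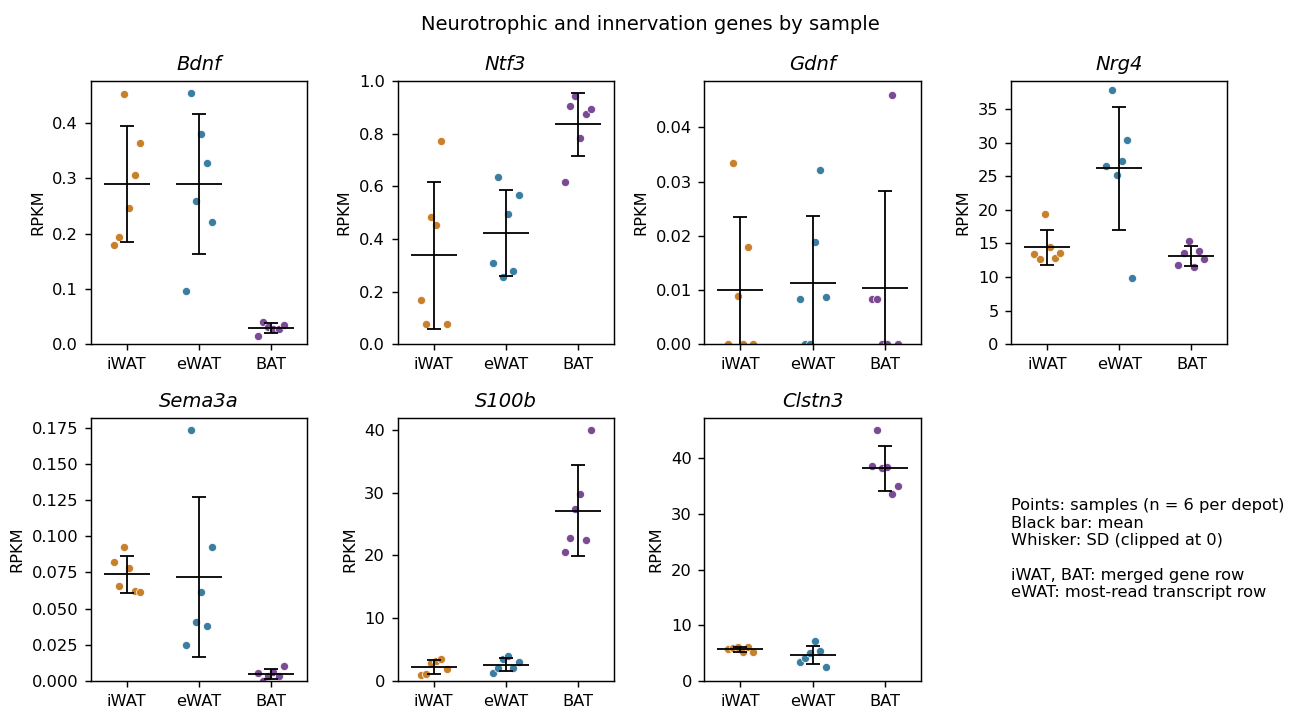
RPKM (linear axes from 0) of the 7 genes in each of the 18 samples, with the mean and SD of the 6 samples of each depot. S100b and Clstn3 sit far higher in all BAT samples than in any white fat sample, Bdnf and Sema3a sit lower in BAT, and Nrg4 lies in 1 range in iWAT and BAT apart from iWAT 12.

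Of the 7 genes, 6 had the minimum of 10 reads in 6 samples and were tested. Between iWAT and BAT, 5 of the 6 passed the threshold, with Bdnf and Sema3a higher in iWAT and Ntf3, S100b and Clstn3 lower. At the same threshold 67.6% of all 19733 genes tested were called, 34.0% higher in iWAT and 33.6% lower. Between eWAT and BAT all 6 passed with the length term, in a comparison that called 77.8% of 18383 genes. Bdnf, Nrg4 and Sema3a were higher in eWAT, as were 56.5% of all genes, and Ntf3, S100b and Clstn3 lower, as were 21.3%. Without that term 5 of them were called in the same direction, as were 61.3% of all genes, the exception being Nrg4. Between eWAT and iWAT only Nrg4 passed, against 50.7% of all genes (44.4% higher in eWAT and 6.34% lower), and no member was called in the same direction with and without the length term, against 16.2% of all genes. Bdnf and Sema3a reached the minimum between iWAT and BAT through the iWAT samples alone, so that they had to differ to be tested, and these counts support nothing about the set. The RPKM ranges of 4 members, Bdnf, Sema3a, S100b and Clstn3, did not overlap between iWAT and BAT (47.7% of all genes) or between eWAT and BAT (61.8%), and those of no tested member were apart between eWAT and iWAT (32.3%). The comparisons of iWAT and of eWAT with BAT share the BAT samples. All adjusted p-values below come from edgeR's quasi-likelihood test with Benjamini-Hochberg adjustment over all genes tested.

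**Figure D2:**
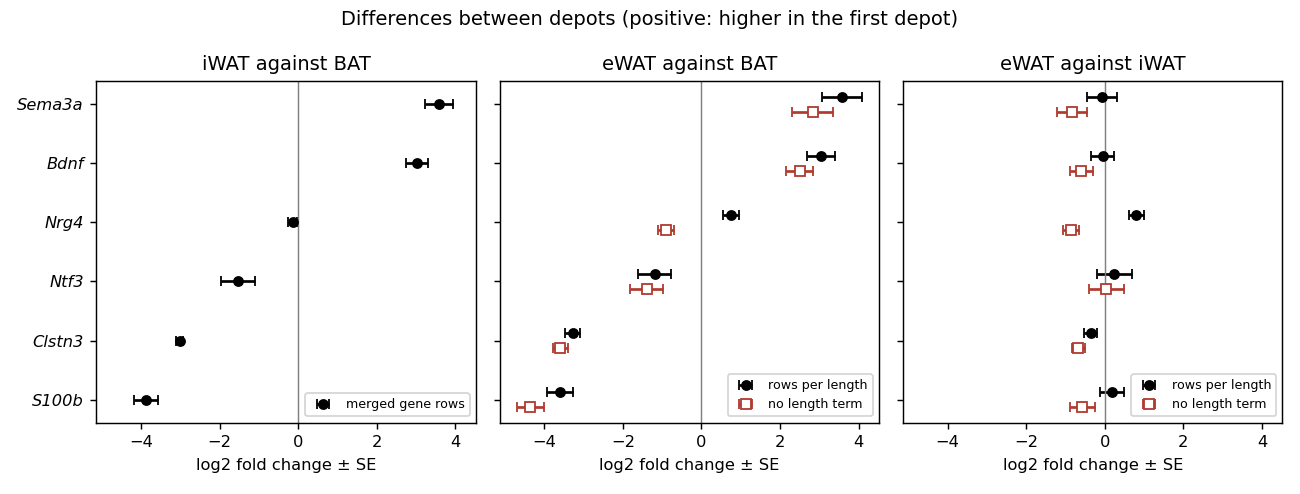
Fitted log2 fold changes with their SE (derived from the test statistic) for the 6 genes tested, in 3 comparisons of 6 samples against 6. Positive values are higher in the first depot named, circles are the reported fits, and open squares are eWAT fits without the length term, under which Nrg4 changes sign.

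Bdnf, the ligand of TrkB, lies on mouse chromosome 2 (mm9, plus strand, 109514857 to 109567204). Its RPKM was 0.179 at the lowest, 0.277 at the median and 0.452 at the highest in iWAT, where a library held 24 to 85 reads. In eWAT the corresponding values were 0.0957, 0.293 and 0.454. In BAT they were 0.0149, 0.0300 and 0.0399, from 3 to 8 reads per library. The lowest white fat sample lay above the highest BAT sample. The fitted difference was 8.07-fold for iWAT over BAT (log2 3.01, SE 0.28, adjusted p = 3.88e-07). For eWAT over BAT it was 8.24-fold (log2 3.04, SE 0.35, adjusted p = 1.93e-07), or 2.5 on the log2 scale without the length term. As the BAT libraries held 3 to 8 reads, Bdnf reached the minimum for testing through the white fat samples alone. The size of these differences rests on few BAT reads, and the tests are to be read with that limit. Between eWAT and iWAT the log2 difference of -0.06 (SE 0.29, adjusted p = 0.890) did not pass, and without the length term it was -0.60 (adjusted p = 0.143).

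Fibroblast or progenitor markers did not move as 1 list beside Bdnf. The sum of all 6 was 535 to 804 in iWAT, 149 to 264 in eWAT and 39.6 to 67.5 in BAT, but most of it in the white depots was Dpt, with means of 614 for iWAT, 143 for eWAT and 17.1 for BAT. Col1a1 (means of 21.9, 15.6 and 5.21) and Ly6a (46.2, 39.9 and 28.0) were, like Dpt, highest in iWAT and lowest in BAT. Pdgfra, a defining marker of progenitors, went the other way, with means of 0.154, 0.629 and 1.14. Pi16 was also highest in BAT (1.04, 0.218 and 2.26), and Dpp4 was highest in eWAT (0.0883, 0.516 and 0.0912). The part of such cells in the levels of Bdnf and of Sema3a was not tested.

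The receptors of BDNF differed as well. Ntrk2, which encodes TrkB, averaged 18.2 ± 2.33 RPKM (SD, n = 6 here and for all later means) in iWAT, with 23.7 ± 6.35 for eWAT and 7.73 ± 1.17 for BAT. It rose by 0.96 (log2, SE 0.14, adjusted p = 2.42e-05) in iWAT against BAT. In eWAT against BAT its log2 difference was 1.38 with the length term and -0.09 without it, so that its direction depended on that term. Ngfr, the low-affinity receptor p75, was low everywhere, with 0.104 ± 0.0586 for iWAT, 0.0639 ± 0.0383 for eWAT and 0.255 ± 0.0856 for BAT. It fell below BAT in iWAT (log2 -1.56, SE 0.38, adjusted p = 0.00214) and in eWAT (log2 -2.19, SE 0.43, adjusted p = 1.30e-04).

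Ntf3, which encodes NT-3, the ligand of TrkC, lies on chromosome 6 (mm9, minus strand, 126051430 to 126116762). In iWAT its RPKM was 0.0749 at the lowest, 0.312 at the median and 0.773 at the highest, from 3 to 38 reads. In eWAT these values were 0.257, 0.401 and 0.634, and in BAT 0.618, 0.883 and 0.943. The BAT samples were the highest as a group, but the highest iWAT and eWAT samples exceeded the lowest BAT sample. Ntf3 was 2.89-fold lower in iWAT than in BAT (log2 -1.53, SE 0.43, adjusted p = 0.00617). It was 2.28-fold lower in eWAT than in BAT (log2 -1.19, SE 0.42, adjusted p = 0.0153, and log2 -1.39 without the length term). Summing the reads of all 4 eWAT transcripts, which counts many reads repeatedly, turned the eWAT value to 0.78. The log2 difference of Ntf3 between eWAT and iWAT was 0.25 (SE 0.44, adjusted p = 0.676), or 0.043 without the length term, and did not pass. Among the iWAT samples its SD of 0.279 was near its mean of 0.338, and its highest value was that of iWAT 14. That sample also had the highest iWAT sums of 6 mural (112.1) and 6 endothelial markers (148.1). The mural sums were 33.6 to 112.1 in iWAT, 91.2 to 192.4 in eWAT and 70.5 to 113.2 in BAT. The endothelial sums were 25.9 to 148.1, 84.9 to 219.9 and 47.7 to 93.5. The mural markers did not move as 1 list. Acta2 averaged 10.1, 60.8 and 3.36 in iWAT, eWAT and BAT. Rgs5 (37.0, 68.1 and 73.0), Myh11 (0.699, 1.87 and 2.59) and Cnn1 (0.0972, 0.124 and 0.376) were highest in BAT. Pdgfrb (2.59, 5.78 and 4.94) was highest in eWAT and Cspg4 (13.5, 5.48 and 8.33) in iWAT. The part of mural and endothelial cells in the level of Ntf3 was not tested.

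Ntrk3, the gene of the NT-3 receptor TrkC, was lower in both white depots than in BAT, as its ligand was. Its RPKM was 12 to 18.3 in BAT, 0.771 to 1.78 in iWAT and 0.0875 to 0.529 in eWAT, with no overlap between any pair of depots. The log2 difference was -3.84 (SE 0.18, adjusted p = 3.65e-10) for iWAT against BAT. For eWAT against BAT it was -5.58 (SE 0.29, adjusted p = 3.34e-12), and for eWAT against iWAT -1.83 (SE 0.26, adjusted p = 9.62e-06). Without the length term these eWAT values were -7.42 and -3.67. The eWAT row (3833 bases, 85445576 to 85722724) covers only part of the merged row (13721 bases, 85325769 to 85723294). Over the alternatives tried, the log2 difference between eWAT and iWAT lay between -3.67 and -0.14, and its call did not hold throughout.

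Gdnf, the ligand of RET and its co-receptor GFRα1, lies on chromosome 15 (mm9, plus strand, 7761011 to 7787575). It was at the edge of detection, with 6 reads over all iWAT samples, 7 over all eWAT samples and 7 over all BAT samples. Of the 18 libraries, 8 held no read of Gdnf, and 3 reads correspond to an RPKM between 0.0248 and 0.0373 depending on the library. A single BAT sample, BAT 12, held 5 reads (RPKM 0.0459), and the other libraries held at most 3. No fold change is given, since all 3 depots lay at or under this limit, and a difference was not detectable at this depth.

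The GDNF receptor genes were nevertheless read in white fat. Ret had an RPKM of 2.64 to 6.69 in iWAT and 2.47 to 3.96 in eWAT, against 0.146 to 0.277 in BAT, so that white and brown samples did not overlap. It was higher in iWAT than in BAT by 4.38 on the log2 scale (SE 0.26, adjusted p = 3.48e-09) and higher in eWAT than in BAT by 3.84 (SE 0.24, adjusted p = 4.40e-11). Gfra1 was low, with means of 0.196, 0.414 and 0.141 for iWAT, eWAT and BAT, and its highest value of 1.04 was in eWAT. Its eWAT call (log2 1.34 against BAT, adjusted p = 0.00476) was lost without BAT 12, eWAT 14 and eWAT 15 (log2 0.66, adjusted p = 0.0665). Nrtn, which encodes the related ligand neurturin, went the other way from Ret. Its RPKM was 1.72 to 4.75 in BAT against 0.0371 to 0.293 in iWAT (log2 -4.23, SE 0.38, adjusted p = 2.69e-07), and no eWAT library held more than 4 reads. As the iWAT libraries held 1 to 8 reads, Nrtn reached the minimum for testing through the BAT samples, and the size of its difference rests on few reads. Gfra3, the co-receptor of artemin, was likewise below BAT in iWAT (log2 -1.92, SE 0.22, adjusted p = 3.52e-06). In eWAT it had 0 to 4 reads.

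Nrg4 lies on chromosome 9 (mm9, minus strand, 55068029 to 55174651) and was the most abundant of the 7 genes in white adipocytes. In iWAT its RPKM was 12.7 at the lowest, 13.5 at the median and 19.5 at the highest, and in BAT 11.5, 13.1 and 15.3. These ranges overlapped, and the log2 difference of -0.14 (SE 0.11, adjusted p = 0.276) did not pass the threshold. Over the alternatives tried it lay between -0.21 and 0.13, turning positive with library size alone and with limma on RPKM. The highest iWAT value came from iWAT 12 alone, the others reaching 14.4. In eWAT the values were 9.84, 26.9 and 37.8, on a row of 1928 bases where the merged row has 6091.

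The eWAT result for Nrg4 turned with the treatment of row length. With the length term it was 1.68-fold higher in eWAT than in BAT (log2 0.75, SE 0.20, adjusted p = 0.00184) and 1.74-fold higher than in iWAT (log2 0.80, SE 0.20, adjusted p = 0.00196). Without the term it was lower in both cases, by -0.91 (adjusted p = 4.49e-04) and -0.86 (adjusted p = 0.00343). The deposited rows therefore fix no direction for Nrg4 in eWAT. The lowest eWAT sample was eWAT 15, which also had the highest sum of macrophage markers. Its sum of adipocyte markers was the lowest, at 2861 against 4344 to 6332 in the other eWAT samples. The part of this cell content in the Nrg4 value was not tested. Without eWAT 15 the call with the length term stayed.

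Reads of Nrg4 also cannot be separated fully from a neighbour. Fbxo22, an F-box gene on the plus strand, has exons inside the Nrg4 span, and 368 of the 6079 annotated exonic bases of Nrg4 are shared with them (55068829 to 55072240 at the outermost). Gm15625, also on the plus strand, has an exon inside the span as well. The library kit does not mark strand. The mean RPKM of Fbxo22 was 10.5 ± 1.55 for iWAT, 24.8 ± 3.12 for eWAT and 7.96 ± 0.708 for BAT. In eWAT, 9 Ensembl transcripts of Nrg4 hold no base of an annotated Fbxo22 exon, and the most-read of these had a mean RPKM of 17.6 ± 6.42. Nrg4 was thus read in eWAT on transcripts free of the shared bases.

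The receptors of NRG4 were much lower than the ligand. Erbb4 had an RPKM of 0.381 to 1.21 in iWAT and 0.425 to 0.660 in BAT, without a called difference (log2 0.06, SE 0.24, adjusted p = 0.853). In eWAT it was 0.0076 to 0.105, below every iWAT and BAT sample. It was lower in eWAT than in iWAT by -3.54 on the log2 scale (SE 0.37, adjusted p = 1.36e-07), and by -3.60 without the length term. Erbb3, whose product pairs with ErbB4 and other family members, was 0.332 to 0.551 in BAT, 0.0936 to 0.325 in eWAT and 0.0429 to 0.0898 in iWAT. It stayed below BAT in iWAT (log2 -2.83, SE 0.20, adjusted p = 2.18e-08) and in eWAT (log2 -1.48, SE 0.28, adjusted p = 8.50e-05), although summing all eWAT transcripts gave 0.08. Erbb3 is known in Schwann cells, whose markers are given with S100b.

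Sema3a lies on chromosome 5 (mm9, plus strand, 13125593 to 13602571). Its RPKM was 0.0612 at the lowest, 0.0717 at the median and 0.0923 at the highest in iWAT, from 16 to 30 reads. In eWAT these values were 0.0249, 0.0510 and 0.173, from 5 to 35 reads. In BAT 9 reads were found over all 6 libraries, 0 to 3 in each, and the highest RPKM was 0.0100. Every white fat sample thus lay above every BAT sample. The fitted log2 difference was 3.57 for iWAT against BAT (SE 0.36, adjusted p = 8.03e-07). It was 3.57 for eWAT against BAT (SE 0.51, adjusted p = 3.69e-06), or 2.83 without the length term. As the BAT libraries lay at or under 3 reads, the size of these differences rests on few reads and depends on the prior count of the fit. Sema3a, too, reached the minimum for testing through the white fat samples alone. Between eWAT and iWAT the log2 difference was -0.08 (SE 0.38, adjusted p = 0.885), or -0.84 without the length term (adjusted p = 0.117).

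Neuropilin 1 and the A plexins, through which SEMA3A acts, had higher means than the ligand in each depot. The mean RPKM of Nrp1 was 12.7 ± 1.29 for iWAT, 38.2 ± 8.02 for eWAT and 11.7 ± 0.653 for BAT. Its log2 difference of -0.15 between iWAT and BAT did not pass (adjusted p = 0.137) and was 0.12 with library size alone, and its higher eWAT value (log2 1.48 against BAT) became -0.14 without the length term. Plxna1 has a row of 1 length in both kinds of file and had means of 6.73, 8.19 and 8.34 in iWAT, eWAT and BAT. Its lower value in iWAT (log2 -0.57, SE 0.19, adjusted p = 0.0160) lost its call without TMM normalisation. Plxna2 was called higher in eWAT than in BAT (log2 0.74, SE 0.19, adjusted p = 0.00134) and did not pass between iWAT and BAT. Plxna4 was also called higher in eWAT than in BAT (log2 1.72, SE 0.36, adjusted p = 2.39e-04), from means of 0.671 and 0.176. Sema3c, another class 3 semaphorin, was among the genes of the wider list that differed most. Its RPKM was 4.23 to 10.3 in iWAT and 15.1 to 21.6 in eWAT against 0.505 to 1.11 in BAT (log2 3.29, SE 0.25, adjusted p = 4.23e-08 for iWAT against BAT).

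S100b lies on chromosome 10 (mm9, plus strand, 75716581 to 75724064) and was a gene of the BAT samples. In BAT its RPKM was 20.5 at the lowest, 25.1 at the median and 40.0 at the highest, from 1958 to 3333 reads. In iWAT these values were 1.01, 2.32 and 3.43, and in eWAT 1.21, 2.52 and 3.93. No white fat sample came near the BAT range. S100b was 14.7-fold lower in iWAT than in BAT (log2 -3.88, SE 0.30, adjusted p = 6.25e-08). It was 12.1-fold lower in eWAT than in BAT (log2 -3.59, SE 0.33, adjusted p = 1.03e-08), and by -4.35 on the log2 scale without the length term. Between the white depots the log2 difference of 0.18 (SE 0.31, adjusted p = 0.661) did not pass, and it was -0.57 without the length term (adjusted p = 0.195), so that no direction was fixed. An exon of Dip2a, annotated on the other strand, lies inside the S100b span, but no base of it is shared with an annotated S100b exon.

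Schwann cells also make S100B, so their markers were set beside it. The 8 Schwann cell markers found summed to 5.90 to 9.98 in BAT, 7.80 to 13.7 in iWAT and 6.25 to 8.30 in eWAT. Mbp, a myelin protein gene, was the largest single part in eWAT and averaged 3.08, 4.56 and 6.87 in BAT, iWAT and eWAT. Sox10, a defining transcription factor of these cells, was 0.463 ± 0.112 in BAT and 0.192 ± 0.0736 in iWAT. In eWAT Sox10 had 0 to 2 reads in a library, while S100b had 68 to 197. The part of Schwann cells in the S100b difference was not tested, and neither was that of brown adipocytes. The brown adipocyte markers, like S100b and Clstn3, were far higher in BAT than in white fat. Their sum was also higher in iWAT (22.2 to 31.6) than in eWAT (4.69 to 7.35), mostly through Cidea (means of 20.2 and 2.12). Ucp1 averaged 2.82 and 0.325, while Cox7a1 (3.29 and 2.80) and Dio2 (0.542 and 0.407) were closer. Neither S100b nor Clstn3 was called between these white depots with the length term. Without that term Clstn3 was called lower in eWAT (log2 -0.67, adjusted p = 0.00771). The 15 sympathetic axon markers summed to 0.417 to 0.716 in BAT, 0.239 to 0.962 in iWAT and 0.785 to 5.95 in eWAT. Among them Dbh had no read in any library and Th at most 1, while Uchl1, also read outside nerves, had 15 to 72 reads in an eWAT library. Npy had 0 to 60 reads in an eWAT library. Its eWAT mean was 0.986 RPKM, beside 0.967 for Uchl1 and 0.476 for Stmn2.

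S100a4, an S100 relative also read in macrophages, was higher in eWAT than in BAT by 4.77 on the log2 scale (SE 0.71, adjusted p = 6.50e-06). Its eWAT median was 10.2 RPKM, and its highest value, 115, was that of eWAT 15, the sample with the highest sum of macrophage markers, whose part was not tested. Ager, the gene of the S100B receptor RAGE, had 1 to 15 reads in a library of any depot and did not reach the minimum for testing.

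Clstn3 lies on chromosome 6 (mm9, minus strand, 124380774 to 124414812). In BAT its RPKM was 33.6 at the lowest, 38.4 at the median and 45.2 at the highest, from 5089 to 7695 reads. In iWAT these values were 5.13, 5.79 and 6.10, and in eWAT 2.51, 4.55 and 7.18. The BAT samples stood far above both white depots. Clstn3 was 8.08-fold lower in iWAT than in BAT (log2 -3.02, SE 0.09, adjusted p = 1.31e-11), with the smallest SE of the 6 genes tested. It was 9.70-fold lower in eWAT than in BAT (log2 -3.28, SE 0.19, adjusted p = 9.06e-12), and by -3.59 on the log2 scale without the length term. Between eWAT and iWAT it did not pass (log2 -0.36, SE 0.17, adjusted p = 0.0916). It was called lower in eWAT without eWAT 13 (log2 -0.52, adjusted p = 0.00741) and without the length term (log2 -0.67, adjusted p = 0.00771). When the transcript with the highest RPKM stood for eWAT, the value turned to 1.39.

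This last value came from a short transcript at the 3′ end of the locus. The eWAT files list 8 transcripts of Clstn3, and 1 of them, ENSMUST00000124998, has 728 bases in 3 exons. Its last 2 exons (124381976 to 124382178 and 124381322 to 124381750) lie inside exons of the full-length transcript NM_153508. Its first exon (124383426 to 124383521, 96 bases) lies in an intron of that transcript. The short row held 201 to 514 reads in the eWAT samples, which was 59.2% to 64.8% of the reads of the full-length row of 4007 bases. Its RPKM was 8.42 to 23.4, against 2.51 to 7.18 for the full-length row.

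Reads were scarce over the 4 listed transcripts that lie wholly upstream of the short one. How many of their 1996 bases lie in exons of the full-length transcript is not given here. Together they held 2 to 7 reads in an eWAT sample. This was 1.0 to 3.51 reads per kilobase, against 276 to 706 for the short row. The first exon of the short transcript held 4 to 27 reads in each of the 6 eWAT samples, as recovered from the deposited lowest exon value, which came out within 0.022 of a whole read. In iWAT and BAT the files give no transcript rows, but they give the value of the most-read exon. For Clstn3 this was 4.08 to 4.49 times the value of the whole row in iWAT and 4.08 to 4.21 times in BAT. Over 4792 genes with at least 10 exons and at least 100 reads in each iWAT and BAT sample the median of this ratio was 2.21 in iWAT and 2.25 in BAT, and 92.1% and 90.3% of them lay below Clstn3. Whether the short transcript is the one that encodes calsyntenin 3β was not tested.

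**Figure D3:**
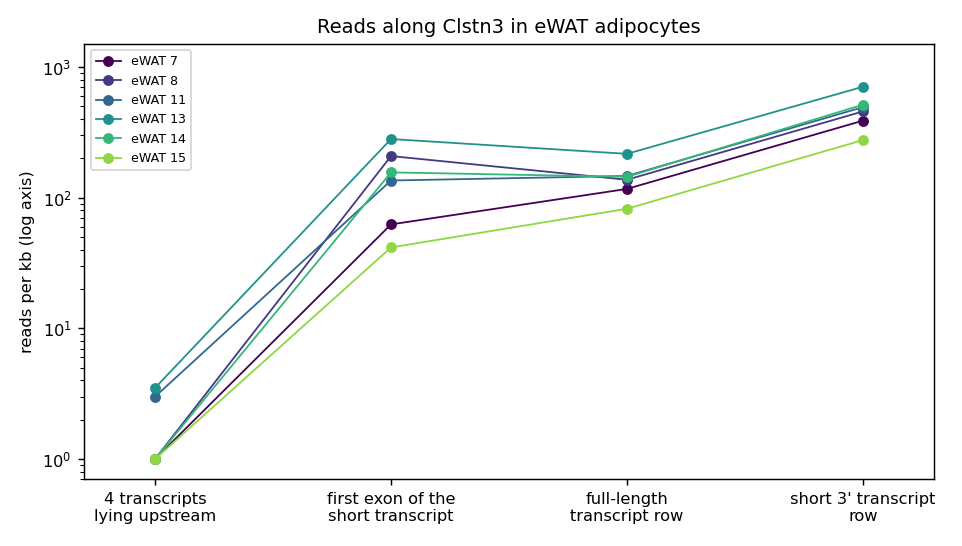
Reads per kilobase (log axis) in the 6 eWAT samples for 4 Clstn3 transcripts lying upstream, the first exon of the short transcript, the full-length row and the short row, with a line per sample. The upstream rows lie at 1.0 to 3.51 and the short row at 276 to 706, and the 2 rows on the right share reads.

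The 250 bases before the start of the short Clstn3 transcript, those before the full-length start and those before S100b are shown because Clstn3 and S100b were both high in BAT and because the short transcript begins inside the gene. All 3 were read from the mm9 genome and are written 5′ to 3′ on the strand of the gene. Capitals mark matches on either strand to 8 short motifs, listed after the sequences.
Clstn3 short transcript, chr6:124383522-124383771, minus strand: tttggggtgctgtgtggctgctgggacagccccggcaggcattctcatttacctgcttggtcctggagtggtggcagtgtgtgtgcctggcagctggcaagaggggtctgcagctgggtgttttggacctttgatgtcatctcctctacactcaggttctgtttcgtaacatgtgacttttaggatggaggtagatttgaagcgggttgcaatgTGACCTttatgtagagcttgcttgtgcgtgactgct
Clstn3 full-length transcript, chr6:124414803-124415052, minus strand: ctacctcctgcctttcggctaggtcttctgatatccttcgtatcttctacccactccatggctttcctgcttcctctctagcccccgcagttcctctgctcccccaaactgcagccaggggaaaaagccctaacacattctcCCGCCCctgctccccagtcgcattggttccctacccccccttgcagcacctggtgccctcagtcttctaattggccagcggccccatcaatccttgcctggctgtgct
S100b, chr10:75716331-75716580, plus strand: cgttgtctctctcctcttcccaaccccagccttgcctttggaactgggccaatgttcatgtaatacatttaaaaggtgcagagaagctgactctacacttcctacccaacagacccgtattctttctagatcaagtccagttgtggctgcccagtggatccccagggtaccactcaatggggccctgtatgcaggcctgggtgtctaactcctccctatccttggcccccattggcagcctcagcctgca

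The motifs were the EBF site (TCCC and GGGA with 2 bases between), the NFI site (TTGGC and GCCAA with 5 bases between), the cAMP response element TGACGTCA, its shorter form TGACG, which every full element contains, the nuclear receptor hexamer AGGTCA, the GC box GGGCGG, the TATA box TATAAA and the E-box CACGTG. The window before the short Clstn3 transcript held 1 match, a nuclear receptor hexamer whose first base lies at position -36 from the start. Of 32536 RefSeq promoter windows of the same length (assembly GRCm38.p6), 14% held this motif. The window before the full-length start held 1 GC box, at -108, as did 33.0% of all windows. The S100b window held no match to any of the 8. The GC content was 52.8%, 58.4% and 53.6% in the 3 windows, against a median of 52.4% over all windows. These are counts of letters and say nothing of binding.

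Over the wider list of 53 other ligands, receptors and guidance genes, 40 were read deeply enough to test. Between iWAT and BAT 14 were higher in iWAT, 9 lower and 17 did not pass, and their median log2 difference was 0.10 against 0.01 for all genes. Between eWAT and BAT 23 were higher and 11 lower with the length term, and 19 and 11 were so under both fits. Between eWAT and iWAT 18 were higher and 8 lower with the length term, and 10 and 8 were so under both fits. The share called was 57.5%, 85.0% and 65.0%, beside 67.6%, 77.8% and 50.7% of all genes. Under both fits 61.3% of all genes were called in the same direction between eWAT and BAT, and 16.2% between eWAT and iWAT.

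Between iWAT and BAT 67.6% of all genes were called, 34.0% higher in iWAT and 33.6% lower. Beside these shares, the counts by role that follow support nothing about a family. The 4 neurotrophin receptors tested all differed between iWAT and BAT, 2 in each direction. Of 5 GDNF family receptors, 1 was higher in iWAT (Ret), 1 lower (Gfra3) and 3 did not pass. Of 7 semaphorin receptors, 1 was higher, 2 were lower and 4 did not pass. Both other calsyntenins were higher in iWAT than in BAT, the opposite direction to Clstn3. Clstn2 had an RPKM of 1.31 to 2.40 in iWAT, 0.434 to 1.12 in eWAT and 0.0303 to 0.0953 in BAT (log2 4.80, SE 0.22, adjusted p = 3.77e-10 for iWAT against BAT). Clstn1, named outside the rule for named genes after its value was seen, was higher by 0.93 (SE 0.09, adjusted p = 7.78e-07). Among guidance receptors Robo1 was called higher in eWAT than in iWAT (log2 2.64, SE 0.29, adjusted p = 3.43e-07, and 1.39 without the length term), from an iWAT mean of 0.0594. The 3 other neuregulins, Nrg1, Nrg2 and Nrg3, did not reach the minimum for testing.

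**Figure D4:**
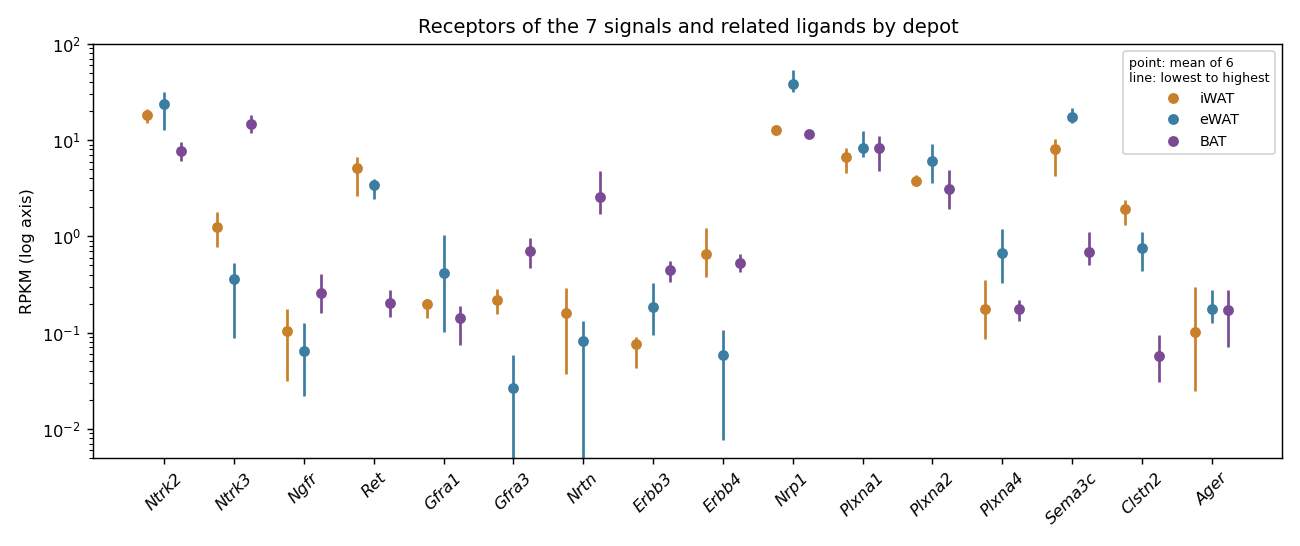
RPKM (log axis) of the receptors of the 7 signals and of related ligands, with the mean of 6 samples as a point and a line from the lowest to the highest sample. Lines that reach the bottom edge include a sample at 0. Ntrk3, Nrtn and Gfra3 are highest in BAT, Ret, Sema3c and Clstn2 lowest there, and Erbb4 is lowest in eWAT.

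The genes whose levels were most like each member over the 18 samples were found by Pearson correlation of log2(RPKM + 0.1) among 13870 genes. The samples share 3 depots and 2 preparations, so these values are descriptions. For Clstn3 the closest genes were Acadl (r = 0.992), Gm5514 and Fh1. Acadl encodes a mitochondrial acyl-CoA dehydrogenase and Fh1 the fumarase of the citric acid cycle. For S100b they were Cox10 (r = 0.976), Wdr73 and Slc25a11, of which Cox10 serves heme synthesis for cytochrome oxidase. For Bdnf they were Crtac1 (r = 0.962), Lipf and Nedd9. For Sema3a they were Acap3 (r = 0.898), AK047897 and Lfng. For Ntf3 they were Nepn (r = 0.909), Fzd6 and Higd1b. For Nrg4 they were Xpnpep3 (r = 0.918), Akt2 and Ppip5k1, which shared its higher values in eWAT on rows of another length.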

How the data were processed

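RNA-seq was analysed in 6 iWAT adipocyte, 6 eWAT adipocyte and 6 BAT tissue samples, grouped by their labels. Nothing states which samples came from separate mice, so p-values measure the spread between these samples. According to the methods, the authors made libraries with the NEBNext Ultra RNA kit and analysed the reads with the Genomatix Genome Analyzer on mm9. The submitters' processing notes also list cutadapt (1.16) and HISAT2 (2.1.0). For each row the authors deposited a read count, which is not normalised, and an RPKM, which equalled the count over row length and over a library total, the depth used here. The deposited score of the lowest and highest exon and of the whole row (NE) scales with reads per base. A row is 1 of 53445 merged genes in iWAT and BAT and 1 of 189660 transcripts in eWAT, where reads of an exon can count for several transcripts.

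Counts were tested with edgeR (4.0.16, in R 4.3.3; glmQLFit, glmQLFTest) and TMM factors. iWAT and BAT were fitted on all merged rows. eWAT was fitted with all 18 samples on 1 row per symbol, with TMM factors from rows identical in both kinds of file and an offset of log row length. Rows needed 10 reads in 6 samples, or in as many samples as the smallest group held when samples were left out. The threshold was an adjusted p of 0.05. Each SE is the size of the fitted log2 difference over the square root of its F statistic, and is approximate. The code was tested on simulated counts with 200 changed genes. The limit of 3 reads covers counting error only. Alternatives were RLE and no normalisation, other filters, DESeq2 (1.42.0), limma (3.58.1) on log2(RPKM + 0.1) and log2(RPKM + 1), a replicate block, other eWAT rows, no length term, and samples left out. Genes named were the 7 members, their receptors, and per comparison the 3 other pathway genes with the largest called change in each direction. The 7 genes, the lists and the markers were chosen with earlier results of these data known. Promoter windows came from the NCBIM37 (mm9) genome. A marker of the Schwann cell list is not reported here on its own.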

Additional observations from a re-analysis of the deposited data

Results flagged for a closer look

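In 57 pairs of a gene and a depot, 4 had a sample far from the other 5 of its depot, where chance alone gives about 1 in 20 (2.85 of 57). Gdnf stood at an RPKM of 0.0459 in BAT 12, from 5 reads, against 0 to 0.00832 in the other BAT samples. BAT 12 was also the BAT sample with the highest sum of muscle markers. Nrg4 stood at 19.5 in iWAT 12, against 12.7 to 14.4 in the other iWAT samples. Nrp1 stood at 53.7 in eWAT 8, against 32.0 to 38.2, and eWAT 8 had the highest sum of endothelial markers among eWAT samples (219.9 against 84.9 to 147.6). Plxna1 stood at 12.5 in eWAT 15, against 6.71 to 7.82, in the sample with the highest sum of macrophage markers. The part of these cells in the 4 values was not tested.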

How the results depend on the processing

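Between iWAT and BAT, the calls of the 6 members held under all alternatives in which they were tested, and so did the directions of the 5 called. Nrg4, not called, turned from -0.14 to 0.13 with library size alone and to 0.12 with limma. The 5 calls fell to 2 only when 10 reads were asked of all 12 samples, since Bdnf, Ntf3 and Sema3a were then not tested. Leaving out single samples gave 5 calls each time. Between eWAT and BAT 6 members were called except on the sum of all transcripts and with 10 reads in 12 samples (5 each), and Nrg4 turned to -0.91 without the length term and Ntf3 to 0.78 on the sum of all transcripts. Rows identical in both kinds of file gave no value for the members, as only Gdnf has such a row. There, 2 pathway genes and 3888 genes were called against BAT, and 1 and 737 against iWAT, as fewer rows are tested.

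Between eWAT and iWAT the 1 member called became 2 without the length term, 3 with the transcript of highest RPKM and 6 with the sum of all transcripts, and leaving out single samples gave 1 to 2, the second being Clstn3 without eWAT 13. The sum called 40 pathway genes and 15849 genes, and the fit without length 4743 genes. The sum counts reads more than once by construction. Values that turned against iWAT, with a call in at least 1 of both fits, were Bdnf (0.81 with the highest RPKM, 3.39 with the sum), Nrg4 (-0.86 without length), Sema3a (1.30 with the sum), Clstn3 (1.39 with the highest RPKM, 1.5 with the sum), Ntrk2 (-1.14 without length), Ret (2.07 with the sum) and Nrp1 (-0.086 without length). Against BAT they were Ntrk2 (-0.087 without length), Nrp1 (-0.14 without length), Erbb3 (0.083 with the sum) and Plxna1 (0.97 with the sum). Of differences called in neither fit, S100b against iWAT turned to -0.57 without length and Ngfr against iWAT to 0.86 with the sum, and other turns were smaller. Without the length term a value shifts by about the log2 ratio of the row lengths, by construction of the fit. The cause of the other turns was not tested.

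With a replicate block on the title numbers, the calls of the members stayed (5, 6 and 1), 11711, 13130 and 8445 genes were called, and Gfra1 against BAT (0.96) and Gfra1 and Ret against iWAT (0.87 and -0.55) missed the threshold in eWAT. Whether samples with the same number came from the same mouse is not stated. Deviations of same-numbered samples correlated at -0.04 to 0.16 (iWAT and BAT), -0.15 to 0.05 (eWAT and BAT) and -0.33 to 0.04 (iWAT and eWAT). These values cannot decide the question, since the pairs are few and join different depots. Under 10 reads in a library, as for Gdnf in all depots and Bdnf and Sema3a in BAT, counting error limits the size of a difference.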
